A study of Mus musculus with 8 samples.

Results

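The molecular chaperone genes of the mouse ileal epithelium are described here by their H3K9ac, an acetyl mark on histone H3 that lies at promoters and enhancers in use. The regions were chosen by the name of their nearest gene, taking every region whose gene name begins with Cct and a digit, Tcp1, Hsp or Dnaj. This rule took 53 of 11251 regions and 50 of 9757 genes. It also took in Tcp11 and Tcp11l2, which are no chaperonin subunits and share only letters with Tcp1, so that 51 regions at 48 genes belong to chaperones or their J-domain partners. The study compared epithelium of the terminal ileum after 7 days of 150 mM butyrate with that of vehicle mice, both wild type and of the C57Bl/6 strain. Butyrate is a short-chain fatty acid of the gut microbiota and an inhibitor of histone deacetylases. Each group had 3 H3K9ac libraries made by chromatin immunoprecipitation and sequencing (S4 to S6 with butyrate, S1 to S3 with vehicle). Input libraries were not analysed here. Age, sex and route of treatment are not in the labels, nor is the number of mice behind a library, so the p-values below reflect variation among libraries that could be technical.

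Molecular chaperones help other proteins to reach and keep their folded state. The TRiC chaperonin is a double ring of different Cct subunits that folds actin and tubulin, HSP70 proteins bind short unfolded stretches in cycles of ATP hydrolysis, and HSP90 acts late on kinases and steroid receptors. J-domain proteins of the DNAJ classes A, B and C deliver clients to HSP70 and speed up its ATPase, while HSP60 with HSP10 folds proteins inside mitochondria. Heat shock factors raise many of the cytosolic genes under stress through heat shock elements, and the unfolded protein response raises those of the endoplasmic reticulum through the ER stress element. In the intestinal epithelium, which renews itself quickly and secretes much protein, most of these genes are housekeeping genes.

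Levels are in RPKM, that is reads per length of region and depth of library, and can be compared between regions because they are per length. Between 1255251 and 1828591 reads lay in regions per library, and chaperone regions held 6256 to 9118 of them. The share of all reads in regions that fell in chaperone regions was 0.496% to 0.517% in every library. Because the libraries were scaled to nearly equal sums, a gain of acetylation shared by all regions cannot be seen in these values. In a population of cells, a mark on fewer cells and less of the mark per cell cannot be told apart. Of the marker genes, those of epithelium carried the mark, with regions at 12 of 13 epithelial marker genes and summed levels of 56.2 to 63.0 RPKM in butyrate and 59.6 to 63.3 RPKM in vehicle libraries. Of the 9 immune markers only Ptprc had a region (0.558 to 1.35 RPKM in butyrate and 0.672 to 0.930 RPKM in vehicle libraries), and of 8 stromal markers only Vim (0.656 to 1.03 RPKM and 0.593 to 1.98 RPKM).

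The promoters of several members hold sequence matches to the control elements of their pathways. The matches are shown because the acetylated regions of all genes printed here except Cct2 cover them. Whether any factor binds at a match was not measured. RefSeq promoter windows (GRCm38.p6, 250 bases before to 50 after each start) matched 38 of the 50 genes with 51 windows. Cct4, Dnajc2, Dnajc5, Dnajc11, Dnajc12, Dnajc18, Dnajc22, Hsp90aa1, Hsp90ab1, Hspa8, Hspa9 and Hspa13 were not matched. The ER stress element, searched as CCAAT and CCACG with 9 bases between them on either strand, was in 3 of 51 windows (5.88%), against 39 of all 32851 windows (0.119%). Each match holds a CCAAT box by construction. This motif was chosen after values of these data were seen, so the contrast is a description and no test. The windows were those of Hspa5, which encodes the HSP70 of the endoplasmic reticulum (BiP), Hsp90b1, which encodes its HSP90 (GRP94), and Dnajc3, a J-domain co-chaperone of BiP. The stretches below lie at chr2:34772020-34772048 (plus strand), chr10:86705588-86705694 (minus strand) and chr14:118937777-118937895 (plus strand), each 5′ to 3′ toward the gene and with the element in capitals. A further match in the Hsp90b1 window lay on the other strand.
Hspa5: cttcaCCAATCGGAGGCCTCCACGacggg
Hsp90b1: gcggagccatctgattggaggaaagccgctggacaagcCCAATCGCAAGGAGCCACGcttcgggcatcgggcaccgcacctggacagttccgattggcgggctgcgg
Dnajc3: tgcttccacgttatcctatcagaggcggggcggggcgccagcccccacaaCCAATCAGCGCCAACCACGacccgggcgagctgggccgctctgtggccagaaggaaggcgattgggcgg

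Heat shock elements are alternating units of GAA and TTC. A match of 2 units (GAANNTTC or TTCNNGAA, both forms reading the same on either strand) was in 10 of 51 windows (19.6%), against 15.1% of all windows, and covered 9 of the 38 genes. These were Cct2, Cct5, Dnaja1, Dnajb4, Dnajb6, Dnajc10, Hspa1b, Hspd1 and Tcp11l2. By log2 fold change, the regions named for Cct5, Dnaja1, Dnajc10 and Hspd1 were lower with butyrate than with vehicle, and those of the others higher. A link between the match and the direction was not tested. Matches of 3 units, which are the shorter form with a further unit after 2 more bases, were in 3 windows (5.88%), belonging to Hspd1 and Dnajb6, against 0.603% of all windows. The stretch of Hspd1, which encodes HSP60 and shares its region with the start of the HSP10 gene Hspe1, is given with its 3-unit match in capitals (chr1:55088054-55088076, minus strand). It is set beside the 2-unit matches of Hspa1b, the stress-inducible HSP70 (chr17:34959285-34959392, minus strand), and of Cct2 (chr10:117063376-117063467, minus strand), a TRiC subunit. The CCAAT box was in 16 windows (31.4%, against 37.4% of all), and the TATA box TATAAA in 2 (3.92%, against 13.6% of all).
Hspd1: ttccgGAAGGTTCTAGAAcggac
Hspa1b: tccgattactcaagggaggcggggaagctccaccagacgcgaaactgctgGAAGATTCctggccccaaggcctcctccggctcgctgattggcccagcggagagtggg
Cct2: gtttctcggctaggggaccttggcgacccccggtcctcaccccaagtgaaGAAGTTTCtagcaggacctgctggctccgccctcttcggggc

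Chaperone regions were promoter regions of middling strength. Their median level was 3.17 RPKM, with a range of 1.06 to 5.86 RPKM, against a median of 3.09 RPKM and a range of 0.586 to 17.7 RPKM over all regions. They were somewhat longer, with a median of 1874 bp against 1417 bp. A start site of the named gene lay under 46 of the 53 regions (86.8%), against 68.5% of all regions. Starts of at least 2 protein-coding genes lay under 9 (17.0%), against 8.06% of all, among them Cct5 with Fam173b, Dnajb11 with Tbccd1, Dnajc7 with Nkiras2, and Hspd1 with Hspe1. At these regions the signal cannot be divided between the neighbouring genes. The median CpG density was 4.12 per 100 bp, and 3.97 over all regions. Of 91 annotated protein-coding genes that the name rule fits, 32 had neither a region of their name nor a region over their start. Among them were the inducible genes Hspa1a, Hsph1, Dnajb1 and Hspb1, whereas the inducible Hspa1b and Hsp90aa1 had regions. Genes that share only letters with the chaperones, such as Tcp11l1 and Tcp11x2, also count among those without a region.

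No chaperone region passed the main test between butyrate and vehicle, and the 3 with the smallest p were all higher with butyrate. Limma on log2(RPKM + 1) called 0 of the 53 regions at a Benjamini-Hochberg adjusted p of 0.05, and it called 0 of the 10529 regions tested (0.0%), 765 of which had an unadjusted p under 0.05. For chaperones, the smallest adjusted limma p was 0.486. At an unadjusted p under 0.05 it found 3 chaperone regions, Cct2, Dnajc16 and Dnaja3, all higher with butyrate, which is 5.66% of them, against 7.27% of all regions in either direction and 3.35% on the higher side. Voom on reads recovered from the RPKM values called 0 of the 53, where it called 0.142% of all regions, and limma on log2(CPM + 0.5) called 0 of the 53 and 7 of all 11251 regions. Without adjustment both found 4 chaperone regions (7.55%), against 9.49% and 9.32% of all regions. In the authors' deposited table, which called regions at an FDR of 0.1, Cct2 was the only chaperone region called, where 28 of 11251 regions (0.249%) were called in either direction and 11 (0.0978%) as higher.

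The fold changes of chaperone regions were small and spread around 0. The median log2 fold change of RPKM + 1, butyrate over vehicle, was 0.04 over the 53 regions and 0.00 over all regions tested, and 31 of the 53 were above 0 (58.5%, against 50.03% of all regions). The median half-width of a chaperone region's 95% interval was 0.26 on this scale. A single chaperone region, Cct2, differed by over 1.5-fold on this scale, as did 33 of all regions. In 8 of the 53 regions (15.1%) every library of one group lay above every library of the other, against 13.0% of all regions tested. All 8 were higher with butyrate, where 6.11% of all regions separated upward and 6.85% downward. With 3 libraries per group an exact permutation test of a single region cannot go below 0.1, and it gave 0.1 (two-sided) at each of the 8.

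**Figure D1:**
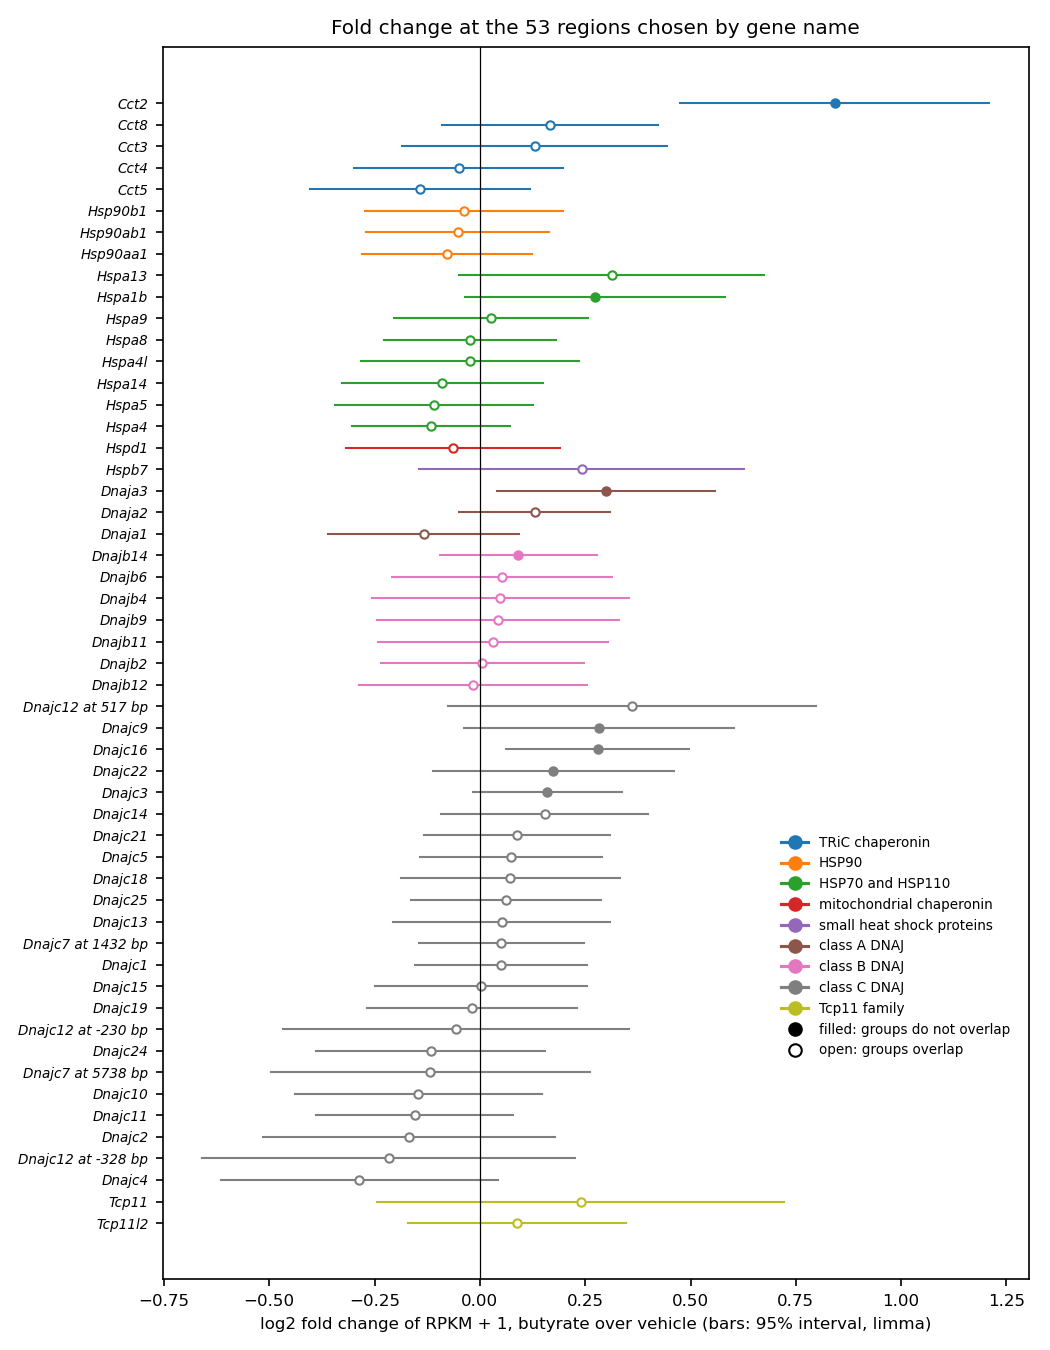
Each row is a region, grouped by chaperone family, with its log2 fold change of RPKM + 1 (butyrate over vehicle, x axis) and its 95% interval by limma; filled points mark regions whose groups did not overlap. All 8 filled points lie to the right of 0, Cct2 stands furthest out at 0.84, and the 3 HSP90 regions lie just left of 0.

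The largest difference was at Cct2, which encodes the beta subunit of the TRiC chaperonin. Its region is narrow and weak, a stretch of 631 bp (chr10:117062717-117063348, mm10) annotated to exon 2 of 16. It lies wholly inside the gene and ends 27 bp short of the nearest Cct2 start site, at 117063375. The level was 2.36, 3.27 and 1.90 RPKM in the butyrate libraries, against 0.983, 0.977 and 0.843 RPKM in the vehicle libraries. All butyrate libraries thus stood well above all vehicle libraries, and the lowest butyrate value was above the highest vehicle value by more than the whole spread of the vehicle group. The reads behind these values were 33, 37 and 27 with butyrate and 16, 11 and 11 with vehicle. Means were 2.51 ± 0.70 and 0.934 ± 0.079 RPKM (SD, n = 3 each), a ratio of 2.69. In level, the region stood at percentile 35.8 of all regions with butyrate and at percentile 5.2 with vehicle.

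The log2 fold change of Cct2 by limma, 0.84 ± 0.17 (SE; 95% interval 0.47 to 1.21), was the highest of all 10529 regions tested, and its unadjusted limma p of 0.00025 was the third smallest. At a threshold of 0.05 it did not pass limma (adjusted p 0.486), voom on recovered reads (adjusted p 0.090) or limma on log2(CPM + 0.5) (adjusted p 0.062). The values of the 2 fits on recovered reads lay under 0.1, the threshold of the authors' table, and that of the main test did not. The authors' deposited table gave it a log2 fold change of 1.40 with an FDR of 0.0254. On a mean of 22.5 reads per library it fell under the 25 reads asked for in the stricter voom fit.

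At the other TRiC regions the groups overlapped. Cct8, the theta subunit, had 2.75, 3.47 and 3.79 RPKM with butyrate and 2.62, 3.11 and 2.82 RPKM with vehicle, and Cct3, the gamma subunit, had 1.89, 2.18 and 1.63 RPKM with butyrate and 1.48, 1.61 and 1.85 RPKM with vehicle. The groups overlapped at both. Cct4, the delta subunit, averaged 2.87 ± 0.42 RPKM with butyrate and 3.00 ± 0.19 RPKM with vehicle. Cct5, the epsilon subunit, was on the lower side, with 2.31, 2.78 and 2.16 RPKM with butyrate and 3.09, 2.69 and 2.52 RPKM with vehicle (log2 fold change -0.14 ± 0.12, unadjusted limma p 0.26). The starts of 3 further TRiC genes lay under regions named for neighbours. At the start of Tcp1, the alpha subunit, in a region named for Mrpl18, the levels were 3.20 ± 0.34 RPKM with butyrate and 3.28 ± 0.30 RPKM with vehicle. At that of Cct7, the eta subunit, in a region named for Pradc1, they were 3.93 ± 0.16 and 3.97 ± 0.54 RPKM, and at that of Cct6b, a zeta subunit, in a region named for Zfp830, 3.34 ± 0.45 and 3.97 ± 0.56 RPKM. Of the 5 TRiC regions chosen by name, 3 were above 0 and 2 below, with a median log2 fold change of 0.13.

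**Figure D2:**
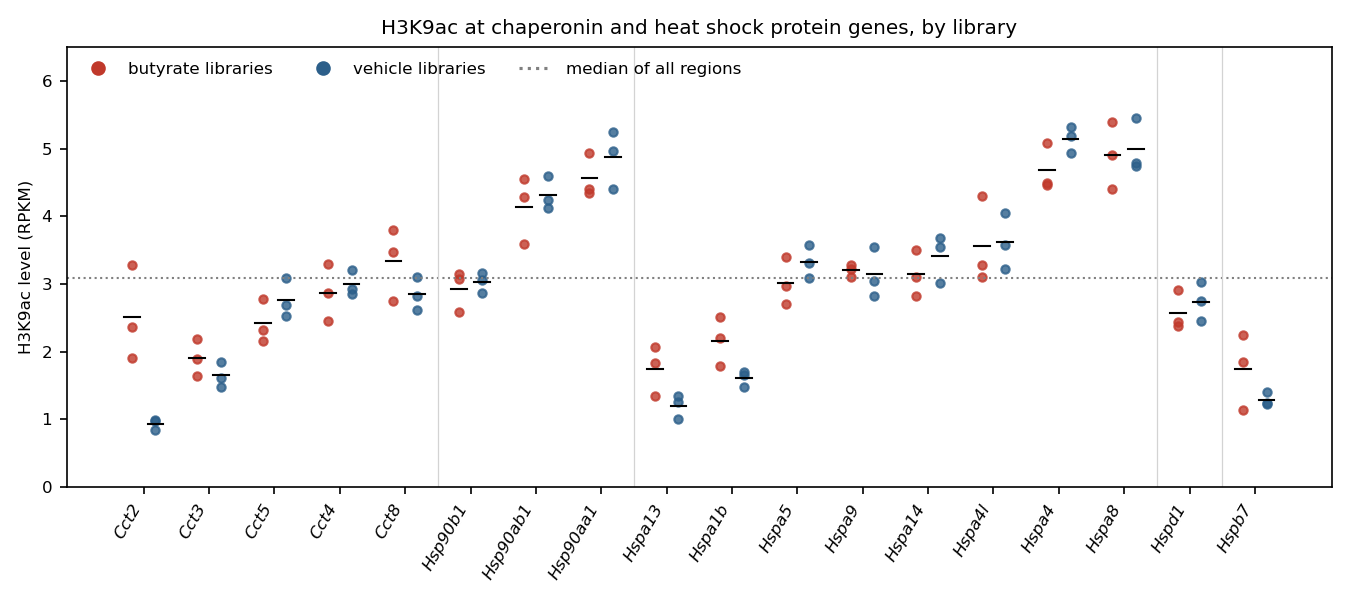
Each point is a library's H3K9ac level (RPKM, y axis) at a TRiC, HSP90, HSP70, HSP60 or small heat shock protein region, with butyrate libraries to the left of vehicle libraries, bars at the group means and a dotted line at the median of all regions. Cct2 shows the widest gap between its groups, whereas the strongest regions, Hspa8, Hspa4 and Hsp90aa1, have groups that overlap.

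Among the 8 HSP70 and HSP110 genes, Hspa1b was the only member whose groups separated (6.11% of all regions tested separated upward). This intronless gene encodes a stress-inducible HSP70, and its region (chr17:34959044-34960265) covers the 2-unit heat shock element match printed above. It had 2.51, 2.20 and 1.78 RPKM with butyrate, against 1.65, 1.47 and 1.70 RPKM with vehicle. The lowest butyrate library was only just above the highest vehicle library, and the log2 fold change was 0.27 ± 0.14 (unadjusted limma p 0.079, adjusted p 0.705). Hspa1b has a near-identical copy, Hspa1a, and reads could have been split between them by the authors' alignment. Hspa13, a microsomal HSP70 relative, had 1.83, 1.34 and 2.06 RPKM with butyrate and 1.25, 1.35 and 1.00 RPKM with vehicle, so that library S5 lay within the vehicle range. Its log2 fold change was 0.31 ± 0.17 (unadjusted limma p 0.085).

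The other HSP70 and HSP110 regions were stronger than those of Hspa1b and Hspa13 and had smaller fold changes. Hspa8, the abundant cytosolic HSC70, had 4.40, 5.40 and 4.91 RPKM with butyrate and 5.45, 4.74 and 4.78 RPKM with vehicle. Hspa4, an HSP110 type nucleotide exchange factor, had 5.08, 4.49 and 4.46 RPKM with butyrate and 4.93, 5.18 and 5.32 RPKM with vehicle, where 2 of the 3 butyrate libraries lay below every vehicle library (log2 fold change -0.12 ± 0.09, unadjusted limma p 0.20). These are among the strongest chaperone promoters, and their 95% intervals ran from -0.23 to 0.18 at Hspa8 and from -0.30 to 0.07 at Hspa4. Its relative Hspa4l averaged 3.56 ± 0.65 RPKM with butyrate and 3.62 ± 0.41 RPKM with vehicle. Hspa9, the mitochondrial HSP70 (mortalin), averaged 3.20 ± 0.090 and 3.14 ± 0.37 RPKM. Hspa14, a ribosome-associated HSP70, averaged 3.15 ± 0.34 RPKM with butyrate and 3.41 ± 0.35 RPKM with vehicle, in a region that also covers the start of Cdnf. Of the 8 HSP70 and HSP110 regions 3 were above 0 and 5 below, with a median log2 fold change of -0.02.

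At the HSP90 genes all 3 regions were slightly below 0, with log2 fold changes of -0.08 to -0.04 and overlapping groups. Hsp90aa1, the inducible cytosolic form, had 4.94, 4.34 and 4.41 RPKM with butyrate and 5.25, 4.40 and 4.97 RPKM with vehicle. Hsp90ab1, the constitutive form, had 4.28, 4.55 and 3.59 RPKM with butyrate and 4.12, 4.23 and 4.59 RPKM with vehicle. Hsp90b1 had 2.58, 3.06 and 3.14 RPKM with butyrate and 3.15, 3.06 and 2.86 RPKM with vehicle. Hspd1, over the shared start of HSP60 and HSP10, had 2.37, 2.91 and 2.44 RPKM with butyrate and 2.74, 3.02 and 2.44 RPKM with vehicle (log2 fold change -0.06, 95% interval -0.32 to 0.19). The only small heat shock protein gene with a region of its name was Hspb7, a cardiovascular member, at a low 1.14, 1.85 and 2.24 RPKM with butyrate and 1.41, 1.24 and 1.22 RPKM with vehicle, on a mean of 20.3 reads.

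The class A J-domain genes, partners of the cytosolic and mitochondrial HSP70s, lay on both sides of 0. Dnaja3, which encodes the mitochondrial co-chaperone TID1, was higher with butyrate in every library, at 3.01, 2.55 and 2.84 RPKM, against 1.84, 2.24 and 2.18 RPKM with vehicle. Its region covers the start site (chr16:4683227-4685355) and held 109.5 reads per library on average. The log2 fold change was 0.30 ± 0.12 (unadjusted limma p 0.026, adjusted p 0.638), and the authors' deposited table gave 0.44 with an FDR of 0.237. Dnaja2 was one of the strongest chaperone regions, with 5.66, 5.82 and 6.27 RPKM with butyrate and 5.07, 5.13 and 5.77 RPKM with vehicle, the groups just overlapping. Dnaja1, the main partner of HSC70, was on the lower side, at 3.32, 3.36 and 4.26 RPKM with butyrate and 3.93, 4.31 and 4.01 RPKM with vehicle (log2 fold change -0.13 ± 0.11, unadjusted limma p 0.23).

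Class B genes had small fold changes. Their 7 log2 fold changes lay between -0.02 and 0.09, with 6 above 0. A single region of the 7 separated its groups, upward, against 6.11% of all regions tested. That region was at Dnajb14, an ER membrane J-protein, with 5.25, 4.88 and 4.82 RPKM with butyrate and 4.80, 4.34 and 4.71 RPKM with vehicle, the lowest butyrate library barely above the highest vehicle library. Dnajb9, an ER J-protein that restrains the stress sensor IRE1, had 4.64, 5.06 and 4.47 RPKM with butyrate and 5.09, 3.32 and 5.51 RPKM with vehicle, where library S2 stood far below the others. Dnajb11, a BiP partner, averaged 3.62 ± 0.68 and 3.5 ± 0.46 RPKM, Dnajb12 3.37 ± 0.55 and 3.43 ± 0.58 RPKM, and Dnajb2 3.36 ± 0.39 and 3.34 ± 0.37 RPKM with butyrate and vehicle. The region named for Dnajb4 was weaker, at 1.71 ± 0.036 RPKM with butyrate and 1.63 ± 0.13 RPKM with vehicle. Another Dnajb4 start lay under a stronger region named for Fubp1, whose groups overlapped. That region averaged 3.60 ± 0.21 RPKM with butyrate and 3.81 ± 0.44 RPKM with vehicle (log2 fold change -0.06). The region named for Dnajb6 lay far upstream of its start, at -40591 bp, and averaged 2.82 ± 0.34 and 2.68 ± 0.36 RPKM, with a CpG density of 0.739 per 100 bp. The Dnajb6 start lay under a region named for Gm5129, with 5.88 ± 0.38 RPKM with butyrate and 5.16 ± 0.093 RPKM with vehicle (log2 fold change 0.16, unadjusted limma p 0.071), and there every butyrate library lay above every vehicle library.

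Class C, the largest and most varied class, held 23 regions at 20 genes, of which 14 were above 0 and 9 below, with a median log2 fold change of 0.05. In 4 of the 23 every butyrate library lay above every vehicle library, against 6.11% of all regions tested. Dnajc16, an ER-anchored J-protein linked to autophagosome size, had 4.08, 5.09 and 4.33 RPKM with butyrate and 3.64, 3.60 and 3.32 RPKM with vehicle, a clear gap for a region of 119.3 reads (log2 fold change 0.28 ± 0.10, unadjusted limma p 0.016, adjusted p 0.596). Dnajc3, with its match to the ER stress element, was the strongest chaperone region of all. It had 5.93, 6.80 and 6.01 RPKM with butyrate, against 5.76, 5.23 and 5.45 RPKM with vehicle. There the groups were close, with a log2 fold change of 0.16 ± 0.08 (unadjusted limma p 0.073). Dnajc9, a histone chaperone that recruits HSP70 to H3 and H4, had 2.08, 1.88 and 1.85 RPKM with butyrate and 1.31, 1.70 and 1.25 RPKM with vehicle, on 31.3 reads (log2 fold change 0.28 ± 0.15, unadjusted limma p 0.078). Dnajc22 had 2.18, 2.09 and 2.07 RPKM with butyrate and 1.94, 1.58 and 1.77 RPKM with vehicle, a narrow but complete separation.

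**Figure D3:**
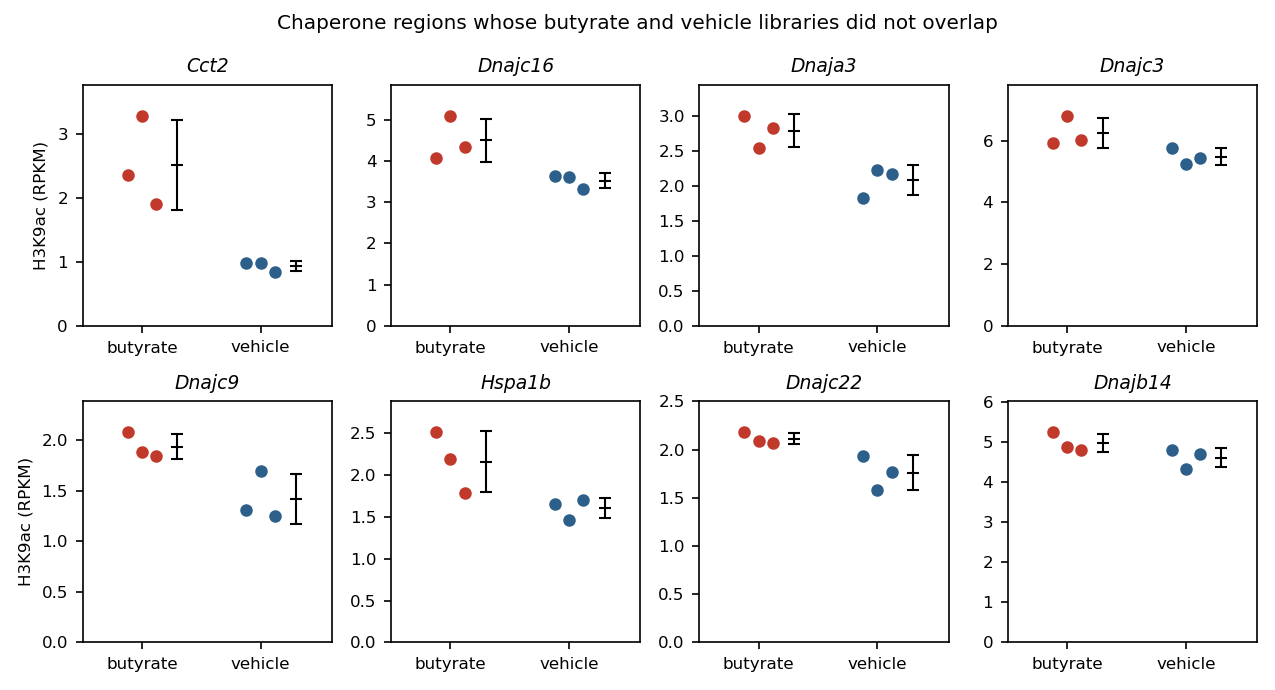
Each panel is 1 of the 8 chaperone regions whose groups did not overlap, with the RPKM of the butyrate libraries (left) and the vehicle libraries (right) as points and the mean ± SD beside them; every y axis starts at 0. The gap is wide at Cct2, moderate at Dnajc16 and Dnaja3, and narrow at Dnajb14, Hspa1b and Dnajc3.

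On the lower side of class C no region separated its groups. Dnajc4 had 2.93, 2.48 and 1.62 RPKM with butyrate and 2.64, 3.56 and 2.92 RPKM with vehicle, library S6 being the lowest of all (log2 fold change -0.29 ± 0.15, unadjusted limma p 0.082, on 35.5 reads). Without S6 its log2 fold change was -0.12 (unadjusted limma p 0.40). Dnajc11, a mitochondrial protein of cristae organisation, had 4.33, 3.62 and 3.29 RPKM with butyrate and 4.18, 3.93 and 4.71 RPKM with vehicle (log2 fold change -0.15 ± 0.11, unadjusted limma p 0.18). Dnajc10, the ER disulfide reductase ERdj5, had 1.76, 2.02 and 1.59 RPKM with butyrate and 1.89, 2.21 and 2.14 RPKM with vehicle (log2 fold change -0.15 ± 0.14, unadjusted limma p 0.30). Dnajc2, a ribosome-bound J-protein, varied widely within both groups, over 2.60 to 5.01 RPKM with butyrate and 3.74 to 5.16 RPKM with vehicle.

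In 2 genes several regions bore the name of the gene. Dnajc12, a co-chaperone of aromatic amino acid hydroxylases, had 3 narrow regions of 500 bp with 12 to 15.8 reads each. Their distances are not all from the same start. The region at -328 bp (chr10:63381865-63382365) lay just before a start at 63382443. That at -230 bp (chr10:63386083-63386583) lay several kb away, over a start at 63386563. The region at 517 bp had 1.80, 1.34 and 1.07 RPKM with butyrate and 0.698, 0.672 and 1.26 RPKM with vehicle. Those at -230 bp and -328 bp averaged 1.37 ± 0.44 and 1.31 ± 0.68 RPKM with butyrate and 1.45 ± 0.36 and 1.62 ± 0.26 RPKM with vehicle. All 3 pairs of groups overlapped. Dnajc7, a TPR protein that links HSP70 with HSP90, had 4.39 ± 0.18 RPKM with butyrate and 4.20 ± 0.25 RPKM with vehicle at its promoter, and 1.18 ± 0.31 and 1.35 ± 0.11 RPKM in the region at 5738 bp.

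The remaining 10 class C regions had log2 fold changes of -0.12 to 0.15 and overlapping groups. They were at Dnajc1, Dnajc5 (cysteine string protein), Dnajc13 (an endosomal J-protein), Dnajc14, Dnajc15 and Dnajc19 (both of the mitochondrial import motor), Dnajc18, Dnajc21, Dnajc24 and Dnajc25, with mean levels of 2.33 to 4.24 RPKM. Of the genes that only the letters of the rule brought in, Tcp11 was the weakest of the 53 regions (1.21 ± 0.30 RPKM with butyrate and 0.905 ± 0.50 RPKM with vehicle, on 11 reads), and Tcp11l2 averaged 4.22 ± 0.54 and 3.92 ± 0.66 RPKM.

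Most of the weak chaperone regions were above 0. The 14 regions with a mean under 2 RPKM lay at 12 genes and included Tcp11, which is no chaperone, and every region of Dnajc12. They had a median log2 fold change of 0.21, and 10 of them (71.4%) were above 0. Over all 2135 regions tested under that level the median was 0.00, and 50.4% were above 0. Among the 39 chaperone regions of at least 2 RPKM the median was 0.01 with 21 above 0, against 0.00 and 49.94% over all such regions. The weak chaperone regions rested on few reads, with a median of 27.5 per library and a median 95% half-width of 0.36, and no test was made of the difference between weak and strong regions. The 10 were Cct2, Cct3, Hspa13, Hspa1b, Hspb7, Dnajb4, Dnajc9, Dnajc22, Tcp11 and the Dnajc12 region at 517 bp.

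**Figure D4:**
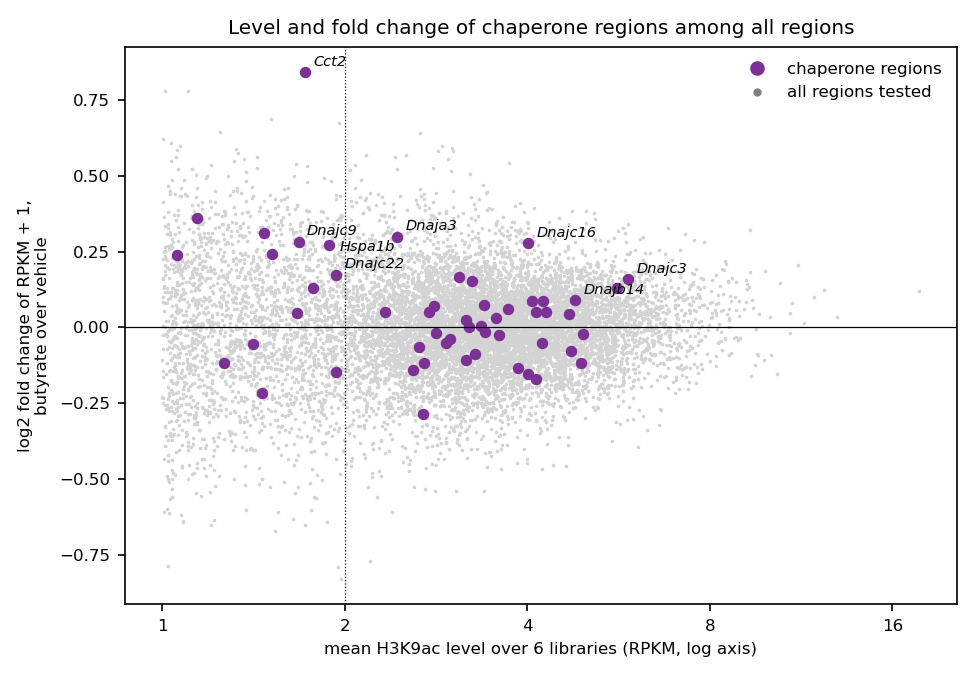
Each point is a region, with its mean level over 6 libraries (RPKM, log axis) against its log2 fold change of RPKM + 1, butyrate over vehicle; chaperone regions are purple, all regions tested are grey, and labels name the 8 regions whose groups did not overlap. Cct2 is the topmost of all points, and chaperone regions above 2 RPKM (dotted line) lie within -0.29 and 0.30.

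The 7 members of the ER lumen (Hspa5, Hsp90b1, Hspa13, Dnajb9, Dnajb11, Dnajc3 and Dnajc10) had 4 regions above 0 and 3 below, with a median log2 fold change of 0.03. Members anchored in the ER membrane, such as Dnajb14 and Dnajc16 described above, are not in this set. Hspa5 itself had 2.97, 3.39 and 2.70 RPKM with butyrate and 3.57, 3.09 and 3.31 RPKM with vehicle, on 303.2 reads (log2 fold change -0.11 ± 0.11, unadjusted limma p 0.34). The genes whose promoter windows hold a match to the ER stress element thus lay on both sides of 0, with Dnajc3 above and Hspa5 and Hsp90b1 below. The 6 mitochondrial members (Hspd1, Hspa9, Dnaja3, Dnajc11, Dnajc15 and Dnajc19) were even at 3 and 3, with a median of -0.01. Dnaja3 was the only one of the 6 whose groups separated (6.11% of all regions tested separated upward).

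Partner genes outside the name rule were taken from 4 lists, each gene at its best-covered region inside 5 kb of the start. Of 55 genes 43 were measured, 26 above 0 and 17 below, with a median log2 fold change of 0.03. Limma called 0 of them, 3 had an unadjusted p under 0.05 (7.27% of all regions did), and 4 had groups that did not overlap (13.0% of all regions), 2 upward (6.11%) and 2 downward (6.85%). Prefoldin subunits and TRiC helpers were even at 4 and 4 of 8, and their member with the smallest p was Pdcl, a phosducin-like protein that binds TRiC, at 3.94 ± 0.068 RPKM with butyrate and 2.71 ± 0.62 RPKM with vehicle (log2 fold change 0.43 ± 0.12, unadjusted limma p 0.0042, adjusted p 0.572). Co-chaperones of HSP90 and HSP70 had 16 of 25 above 0. The glucocorticoid-induced immunophilin gene Fkbp5 was the furthest below, at 2.68 ± 0.77 RPKM with butyrate and 3.68 ± 0.47 RPKM with vehicle (log2 fold change -0.36 ± 0.14, unadjusted limma p 0.024). Bag3, a stress-inducible exchange factor, averaged 4.66 ± 0.61 RPKM with butyrate and 5.31 ± 0.065 RPKM with vehicle, with every butyrate library below every vehicle library.

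The mitochondrial partner list was even at 4 and 4 of 8. Trap1, the mitochondrial HSP90, had all butyrate libraries below all vehicle libraries, at 2.82 ± 0.079 and 3.60 ± 0.33 RPKM (log2 fold change -0.26 ± 0.10, unadjusted limma p 0.025, adjusted p 0.638). Of the heat shock factor list 2 of 6 genes were measured, and both overlapped between groups. Hsf1, the main activator of heat shock genes, averaged 4.0 ± 0.49 RPKM with butyrate and 3.62 ± 0.12 RPKM with vehicle, and Hsbp1, which encodes a binding protein of that factor, averaged 6.51 ± 0.14 and 6.30 ± 1.1 RPKM.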

How the data were processed

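Per the labels' protocols, chromatin of ileal epithelial cells was precipitated with an antibody to H3K9ac and sequenced as paired ends. Mouse build mm10 is given per the submitters' processing notes, which also list edgeR, HOMER, Picard and STAR without version or role; how regions were called and counted is not given in the sources used here. Per the file headers, the deposited table holds RPKM per library and, by the authors, group means as RPKM and CPM, a log2 fold change, a p-value and an FDR. Library sizes were inferred from the RPKM values themselves, as the size at which they become whole reads. Multiplying deposited RPKM by region length and this inferred size gave whole reads in 100% of cases (tolerance 0.01 reads). No known library size was at hand to check it. Column names give the group of a library and no replicate number.

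The main test was limma 3.58.1 (R 4.3.3) with trend and robust empirical Bayes on log2(RPKM + 1), over all 10529 regions with a mean of at least 1 RPKM, which all 53 chaperone regions passed, with Benjamini-Hochberg adjustment over all of them. The pseudocount shrinks the fold changes of weak regions. Voom and limma on log2(CPM + 0.5) used the recovered reads. Both limma and voom were also run on simulated reads, but the outcomes are not reported here, so no power of the tests is stated. Replicate pairs differed by more than counting noise (chi-square per degree of freedom 1.95 to 2.11). Start sites came from GENCODE M21, and all 11251 regions lay within the chromosomes of GRCm38. The members, gene lists and compartment sets were chosen with earlier results of these data known. Named in full are the TRiC, HSP and several-region members, the 6 smallest p in each direction, the 3 strongest and 3 weakest regions and any region called. Other names were chosen after their values were seen, and so was the ER stress element as a motif.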

Additional observations from a re-analysis of the deposited data

How the results depend on the processing

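No paired analysis was possible because the columns carry no replicate numbers of the labels. Over all regions limma called 0, whereas voom on recovered reads called 16, voom limited to regions averaging 25 reads or more called 9, and 7 were called by limma on log2(CPM + 0.5); the cause was not tested. Leaving out each library, limma called 0 throughout, and voom called 6 to 12 regions (these voom runs without a library were chosen after seeing the data). At an adjusted p of 0.05, chaperone regions called stayed at 0, and partner genes called at 0, under every alternative run. A threshold of 0.1 was applied to the main limma fit only, where it called 0 regions. At Cct2 the adjusted p was under 0.1 with voom on recovered reads (0.090) and limma on log2(CPM + 0.5) (0.062). Voom without S6 gave 0.089 there, and voom without any other library gave 0.167 to 0.311. The median log2 fold change of chaperone regions ran from 0.0061 (regions of at least 2 RPKM) to 0.0644. Regions with groups apart numbered 8 to 9 of 53 under other scalings, 7 of 46 with at least 25 reads, and 8 of 51 without Tcp11 and Tcp11l2. In the main setting 13.0% of all regions tested had groups apart, and the share under these alternatives is not given here. Without a library they numbered 11 to 17 (16 without S3, 17 without S4 and 15 without S5), since fewer libraries separate more easily: 22.7% to 24.3% of all regions did so. Downward separations then were 1 to 5 and upward ones 10 to 14. The limma log2 fold change of Cct2 was 0.69 to 0.97 without a library. Single fold changes without a library were examined only at the 12 regions named for their p. At 6 of these 12, which no fit called, the value moved by over 1.5 times: Dnajc4 (-0.41 to -0.12), Cct5 (-0.22 to -0.08), Dnaja1 (-0.23 to -0.08), Dnajc10 (-0.20 to -0.09), Dnajc11 (-0.24 to -0.09) and Dnajc3 (0.11 to 0.19). The 12 regions named for their p (6 on either side of 0) kept their direction under each alternative run on them. They were picked for their p from these same libraries, so an unchanged direction is no independent support. Depth limits the weak regions most.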
